A study of Mus musculus with 8 samples.

Results

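The 7 miRNA precursors mmu-mir-146a, mmu-mir-146b, mmu-mir-147, mmu-mir-155, mmu-mir-21a, mmu-mir-132 and mmu-mir-212, all linked to inflammatory signalling, were followed in myoblasts of old and young mice. They were chosen by precursor name from the 1181 precursors in the deposited table, and 7 of 7 were found. The prefix mmu, for mouse, is left out from here on. Myoblasts are the muscle precursor cells that divide and fuse into fibres. Small RNA was sequenced from myoblasts of 4 old and 4 young C57BL/6J mice, 1 library per mouse as the labels number them, here called by group and number (old 1, young 1 and so on). Values per library are always listed in the order of these numbers. No treatment or genetic change is named for either group, and the sources used here give neither the ages, the muscle of origin nor the culture conditions. The title of the series concerns miR-431 in the differentiation and regeneration of old muscle.

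A miRNA is cut from a hairpin precursor and guides the silencing complex to mRNAs that pair with its seed, the bases from position 2 to position 8. Transcription of the miR-146a and miR-155 genes is raised by NF-kB, the transcription factor that Toll-like receptors and inflammatory cytokines activate. miR-146a then acts as a brake, since it targets the signalling adaptors Irak1 and Traf6 upstream of NF-kB. miR-155 mostly has the opposite part in macrophages, where it targets the inhibitors Socs1 and Inpp5d. miR-147 is induced by Toll-like receptors in mouse macrophages. miR-21 is a STAT3 target that represses Pdcd4, and miR-132 and miR-212 are made together under CREB.

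The mature sequences are shown because pairs of members share a seed, so that their levels add up on the same kind of target site. Capitals mark the seed, each sequence is written 5′ to 3′, and all are from RefSeq on GRCm38.p6, the assembly also called mm10. No strand of mir-147 is shown.
miR-146a-5p: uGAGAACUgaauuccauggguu
miR-146b-5p: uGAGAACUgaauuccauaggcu
miR-132-3p: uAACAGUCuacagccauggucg
miR-212-3p: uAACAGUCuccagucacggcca
miR-155-5p: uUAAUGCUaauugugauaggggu
miR-21a-5p: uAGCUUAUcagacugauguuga
Counted from the 5′ end, miR-146a-5p and miR-146b-5p are the same at 20 of 22 positions and differ by G18A and U21C, outside the seed. miR-132-3p and miR-212-3p are the same at 17 of 22 positions and differ by A10C, C14U, U17C, U20C and G22A. Among the 1679 mature names of the RefSeq table no other mature miRNA has the seed of either pair. miR-21a-5p shares its seed with miR-21c, whose precursor mir-21c was at 0 in all 8 libraries, as was mir-21b. The deposited values are per precursor and do not separate the arms, so the level of a mature strand alone cannot be read from them.

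The hairpin of mir-146a is the shortest measured unit among the members, together with that of mir-155, at 65 bases. It is shown with both mature arms in capitals.
mir-146a hairpin: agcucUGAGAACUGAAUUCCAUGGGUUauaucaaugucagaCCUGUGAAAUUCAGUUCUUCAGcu
It lies on the minus strand at chr11:43374397-43374461 and overlaps no other gene of the GENCODE M21 annotation. mir-146b lies at chr19:46342762-46342870 in an intron of Mfsd13a. mir-147 lies at chr2:122640803-122640881 in an exon of AA467197. mir-155 lies at chr16:84714140-84714204 in an exon of Mir155hg, its non-coding host transcript. mir-21a lies on the minus strand at chr11:86584067-86584158, where an annotated exon of Vmp1 covers it. mir-212 at chr11:75173388-75173478 and mir-132 at chr11:75173682-75173747 lie 203 bases apart on the plus strand, both in an intron of the non-coding 1700016P03Rik.

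The deposited values are log2 abundances with a floor at 0, where a linear value under 1 is listed as 0. No member was at the floor in any library. The steps between the lowest values behave as whole reads divided by precursor length and library size, which is how RPKM is built. On that reading library sizes were 25.1 to 39.4 M reads, levels of different precursors can be compared per length, and each value can be turned back into reads. Reads were not counted as separate molecules, so intervals on them cover counting error only. limma was run on 359 precursors, those whose linear value reached 10 in 4 or more libraries, and 7 of 7 members were among them.

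The members covered a wide range of levels. mir-21a had the highest mean log2 abundance over the 8 libraries, 13.37 ± 0.67 (SD, n = 8), and ranked 52nd of 1181 by mean. mir-155 followed at 11.08 ± 0.66 and ranked 87th. mir-132 at 8.32 ± 0.84, mir-212 at 7.91 ± 0.76 and mir-146b at 7.88 ± 0.50 ranked 156th, 172nd and 174th. mir-147 at 5.03 ± 1.55 and mir-146a at 4.79 ± 0.99 were the least abundant and ranked 246th and 256th. In reads, mir-21a was backed by 17967 to 84594 and mir-155 by 2725 to 11246 per library. mir-146a was backed by 29 to 182 reads and mir-147 by 11 to 337.

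The order of the levels, per base of hairpin, was firm at the top and less so below. mir-21a exceeded mir-155 in 8 of 8 libraries, by 1.71 to 3.30 on the log2 scale, a geometric mean of 4.89-fold per length. mir-155 exceeded mir-132 in 8 of 8 libraries, by 2.18 to 3.89. mir-132 exceeded mir-212 in 7 of 8 libraries, with log2 differences from -0.24 to 0.82, but in reads it was lower in old 1, old 2, young 1 and young 2. mir-212 and mir-146b did not differ beyond their spread, the log2 level of mir-146b minus that of mir-212 running from -0.67 to 1.22. mir-146b itself lay on both sides of mir-132 as well, with mir-132 minus mir-146b from -1.11 to 1.05. mir-212 exceeded mir-147 in 8 of 8 libraries, by 0.72 to 5.07. mir-147 was above mir-146a in 5 of 8 libraries and below it in the rest, with log2 differences from -1.92 to 2.26.

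**Figure D1:**
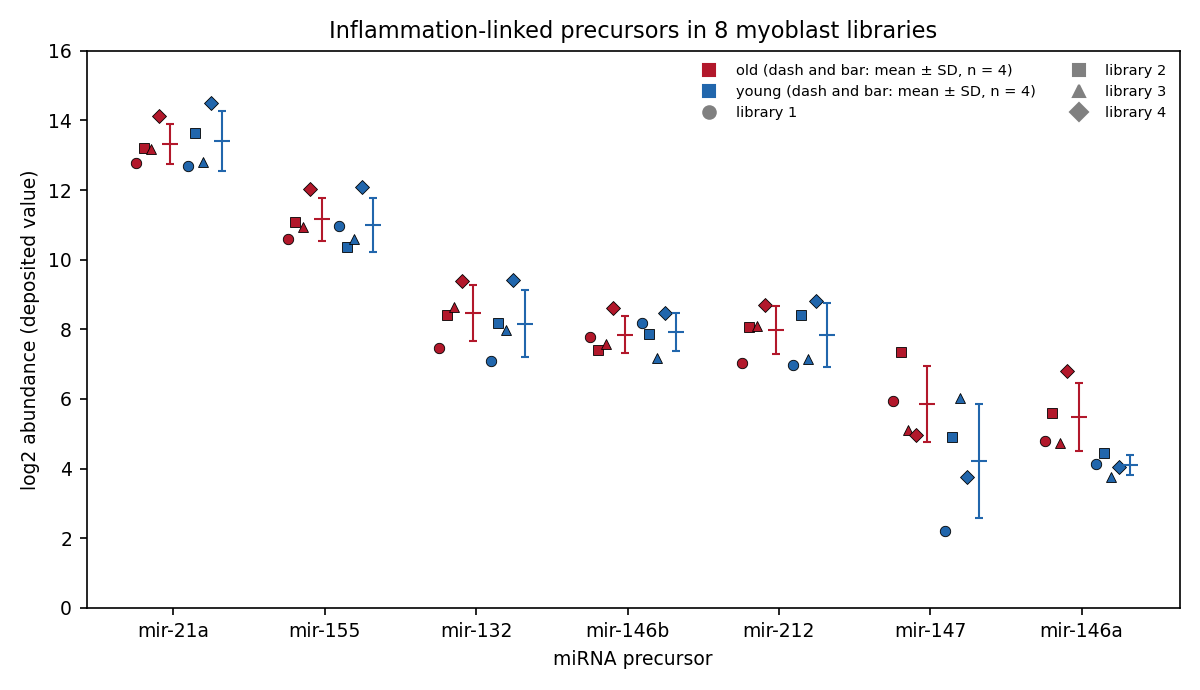
Deposited log2 abundance (y axis) of the 7 precursors (x axis, by mean level) in each of the 4 old (red) and 4 young (blue) libraries, with the mean and SD of each group. The old and young points of mir-146a do not overlap (4.73 to 6.80 against 3.77 to 4.46), while those of every other member do.

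mir-146a was the member whose groups did not overlap. Its log2 abundance was 4.79, 5.60, 4.73 and 6.80 in the old group and 4.13, 4.46, 3.77 and 4.04 in the young group. Every old library was above every young one, and old 4 was the highest, at 6.80 against 4.73 to 5.60 in the other old libraries. The mean was 5.48 ± 0.97 (SD, n = 4) in the old and 4.10 ± 0.28 (SD, n = 4) in the young group. The difference was 1.38 (SE 0.54, 95% interval from 0.17 to 2.59), or 2.60-fold on the geometric mean. It did not pass the test over all 359 precursors (limma, p = 0.0300, adjusted p = 0.995), and the two-sided exact permutation p was 0.0286, the smallest that the 70 arrangements of 4 against 4 libraries allow. mir-146a had the smallest limma p of the 359, a result that was known when the set was put together, so neither p is independent evidence. At an unadjusted p under 0.05 there were 4 of 359 precursors (1.11%), 2 of them with old higher (0.557%). Groups without overlap occurred for 3 of 359 precursors (0.836%) in either direction and for 1 with old higher (0.279%), which was mir-146a itself. Over the 359, 0 (0.00%) passed at an adjusted p of 0.05. In bulk libraries, more cells that express a miRNA and more of it per cell cannot be told apart.

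The reads behind mir-146a were few. They numbered 50, 82, 45 and 182 in the old group and 34, 46, 29 and 42 in the young group. Old 3 (45) was below young 2 (46) in reads, from libraries of 26.2 and 32.1 M reads. The groups thus separated after scaling to library size and not in reads. The exact 95% Poisson interval was 32.8 to 60.2 reads for old 3 and 33.7 to 61.4 for young 2, the lowest old and the highest young library on the scaled values, so the intervals of these neighbours overlapped. For old 4 it was 157 to 210 reads. Without old 4 the difference was 0.94 (limma, adjusted p = 1.0). With old 4 and young 4 both left out it was 0.92 (SE 0.45, limma, adjusted p = 0.901).

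mir-146b, which carries the same seed, did not take that course. Its log2 abundance was 7.78, 7.41, 7.59 and 8.60 in the old group and 8.19, 7.87, 7.17 and 8.46 in the young group. The groups overlapped almost fully, with means of 7.845 ± 0.53 and 7.92 ± 0.56 and a difference of -0.08 (95% interval from -1.04 to 0.89, limma p = 0.861, adjusted p = 0.995, exact permutation p = 0.857). Within a library mir-146b exceeded mir-146a by 2.99, 1.81, 2.86 and 1.80 in the old group and by 4.06, 3.41, 3.40 and 4.42 in the young group on the log2 scale. This ratio does not depend on the scaling of a library, and its old and young values did not overlap. Its geometric mean, per base of hairpin, was 5.15-fold in old and 14.1-fold in young libraries. The ratio rests on the same mir-146a values as above and is given as a description, with no test. How often ratios of other precursors separate the groups was not counted.

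Since mir-146b was the larger of the pair everywhere, the summed level of both precursors followed mir-146b. mir-146a made up 11.2, 22.2, 12.1 and 22.3% of the summed linear level in the old group and 5.66, 8.60, 8.65 and 4.46% in the young group. This level is per base of hairpin (65 bases for mir-146a, 109 for mir-146b), so mir-146a weighs more in these shares than it would in reads. The reads of mir-146b numbered 670, 482, 550 and 1062 in the old group and 956, 819, 513 and 1513 in the young group. The log2 of the sum was 8.12 ± 0.57 (SD, n = 4) in the old and 8.03 ± 0.53 (SD, n = 4) in the young group, and the groups overlapped. The shares of mir-146a thus did not overlap between the groups, while the sums did. These shares restate the ratio above and add no further evidence.

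**Figure D2:**
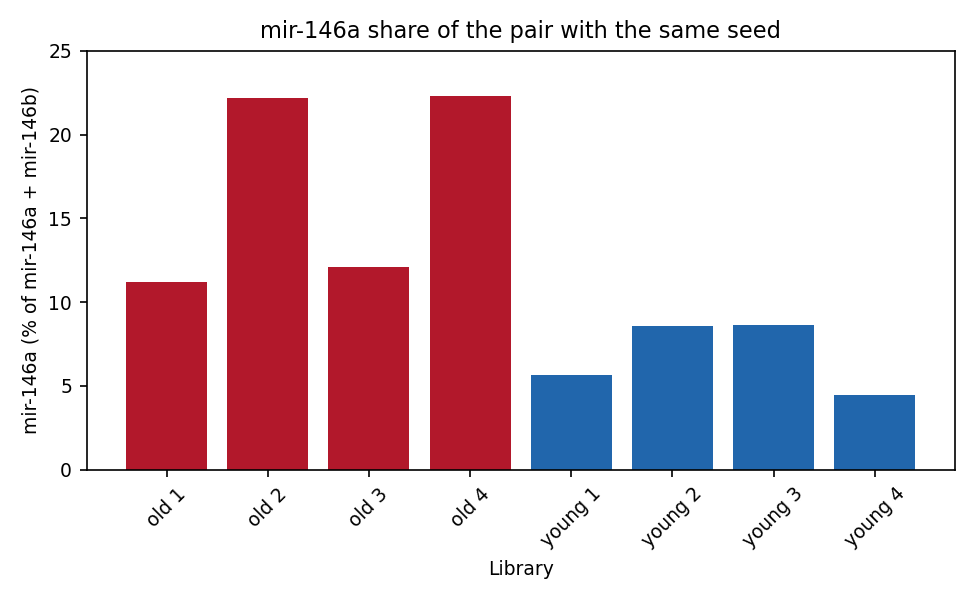
Share of mir-146a in the summed linear level of mir-146a and mir-146b (y axis, percent) in each library (x axis; red old, blue young), 1 bar per library with no error bar. Shares run from 11.2 to 22.3% in old and from 4.46 to 8.65% in young libraries. They are of levels per base of hairpin, not of reads.

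mir-147 had the largest mean difference and the widest spread of the members. Its log2 abundance was 5.93, 7.36, 5.12 and 4.97 in the old group and 2.21, 4.90, 6.03 and 3.75 in the young group. Young 3 lay above 3 of the 4 old libraries, and young 1, at 11 reads (exact 95% Poisson interval 5.49 to 19.7), was the lowest. The means were 5.845 ± 1.09 and 4.22 ± 1.63 (SD, n = 4 in each group). The difference of 1.62 (SE 0.86, 95% interval from -0.31 to 3.55) did not pass (limma, p = 0.0900, adjusted p = 0.995, exact permutation p = 0.171). Without young 1 it was 0.95 (limma, adjusted p = 0.975).

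mir-155 was abundant and similar in both groups. Its log2 abundance was 10.58, 11.07, 10.94 and 12.04 in the old group and 10.97, 10.35, 10.58 and 12.10 in the young group. Old 4 and young 4 were the highest of their groups, and the groups overlapped. The difference was 0.16 with a 95% interval from -0.90 to 1.21, or from 0.537 to 2.32 as a ratio of old to young (limma, p = 0.745, adjusted p = 0.995, exact permutation p = 0.714). The log2 level of mir-155 minus that of mir-146a was 5.79, 5.47, 6.21 and 5.24 in the old and 6.84, 5.89, 6.81 and 8.06 in the young group. These ranges overlapped, since young 2 lay below old 3.

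mir-21a, the STAT3-linked member, also overlapped between the groups. Its log2 abundance was 12.77, 13.21, 13.19 and 14.13 in the old group and 12.68, 13.65, 12.80 and 14.51 in the young group. The difference was -0.08 with a 95% interval from -1.14 to 0.97 (limma, p = 0.860, adjusted p = 0.995, exact permutation p = 0.943). It held 0.0436 to 0.242% of the summed linear values of a library.

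The CREB-linked precursors mir-132 and mir-212 differed little between the groups. mir-132 measured 7.45, 8.40, 8.64 and 9.40 in the old group and 7.08, 8.17, 7.97 and 9.43 in the young group, a difference of 0.31 with a 95% interval from -0.99 to 1.61 (limma, p = 0.605, adjusted p = 0.995, exact permutation p = 0.657). mir-212 measured 7.04, 8.08, 8.10 and 8.71 in the old group and 6.97, 8.41, 7.15 and 8.82 in the young group, a difference of 0.145 with a 95% interval from -1.08 to 1.37 (limma, p = 0.797, adjusted p = 0.995, exact permutation p = 0.886). Libraries low in the one were low in the other, old 1 and young 1 being the lowest of their groups for both. Per base of hairpin (66 bases for mir-132, 91 for mir-212), mir-132 was above mir-212 in 7 of 8 libraries, by 0.41 ± 0.34 on the log2 scale (SD, n = 8). On that measure it made up 45.9 to 63.8% of the summed linear level of the pair. In reads, mir-132 was below mir-212 in old 1 (323 against 335) and old 2 (580 against 640). It was also below in young 1 (268 against 343) and young 2 (611 against 994), and above in the other libraries. The order of this pair thus depended on the division by hairpin length.

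**Figure D3:**
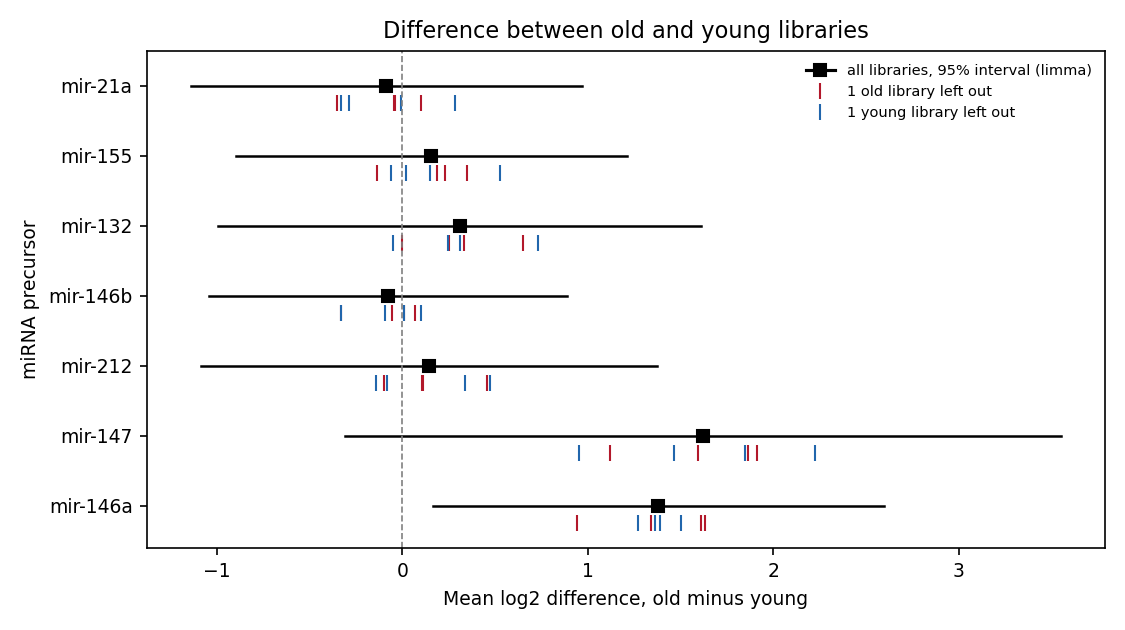
Mean log2 difference, old minus young (x axis), of each precursor (y axis) with the 95% interval from limma over all 8 libraries (black), and the same difference with 1 old (red tick) or 1 young (blue tick) library left out. The interval of mir-146a runs from 0.17 to 2.59 and is the only one of the 7 that does not include 0, before any adjustment for the 359 precursors.

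Relations between members were tested for 3 pairs over the 8 libraries, and p-values were adjusted over these 3. mir-132 and mir-212 moved together, with Pearson r = 0.913 (exact permutation p = 0.00181, adjusted p = 0.00543) and Spearman rho = 0.929 (exact permutation p = 0.00223, adjusted p = 0.00670). Within the groups r was 0.988 in old and 0.872 in young libraries. Without young 1 and young 4, the libraries farthest from the median of mir-132, r was 0.845 (exact permutation p = 0.0292, adjusted p = 0.0875), so the relation no longer passed after adjustment and rests in part on those libraries. The permutation takes the 8 libraries as exchangeable, while some libraries of the same number resembled each other. Their deviations from the group means over the 359 precursors correlated at 0.43 to 0.66 for numbers 2 to 4 and at -0.06 for number 1. Old 3 and young 1, of unlike number, correlated at 0.45. mir-132 itself was at like levels in old 4 and young 4 (9.40 and 9.43), so these p-values can be too small. After median-ratio rescaling, which removes what most precursors of a library share, r was 0.791 (exact permutation p = 0.0309, adjusted p = 0.0926). Values as high were seen outside this neighbouring pair: mir-21a had r = 0.934 with mir-212 and 0.896 with mir-132, given as a description with no test.

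The other pairs did not pass. mir-146a and mir-146b had Pearson r = 0.337 (exact permutation p = 0.425, adjusted p = 0.425) and Spearman rho = 0.190 (exact permutation p = 0.665). mir-146a and mir-155, both NF-kB targets, had Pearson r = 0.437 (exact permutation p = 0.274, adjusted p = 0.411) and Spearman rho = 0.204 (exact permutation p = 0.632). Their r was 0.950 in old and -0.24 in young libraries, each over 4 libraries only. Without old 2 and old 4, the libraries farthest from the median of mir-146a, r was 0.00207 for mir-146a with mir-146b and -0.30 for mir-146a with mir-155, so neither value holds without those libraries. With old 4 and young 4 left out instead, r was -0.095 and 0.453 in the same order.

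**Figure D4:**
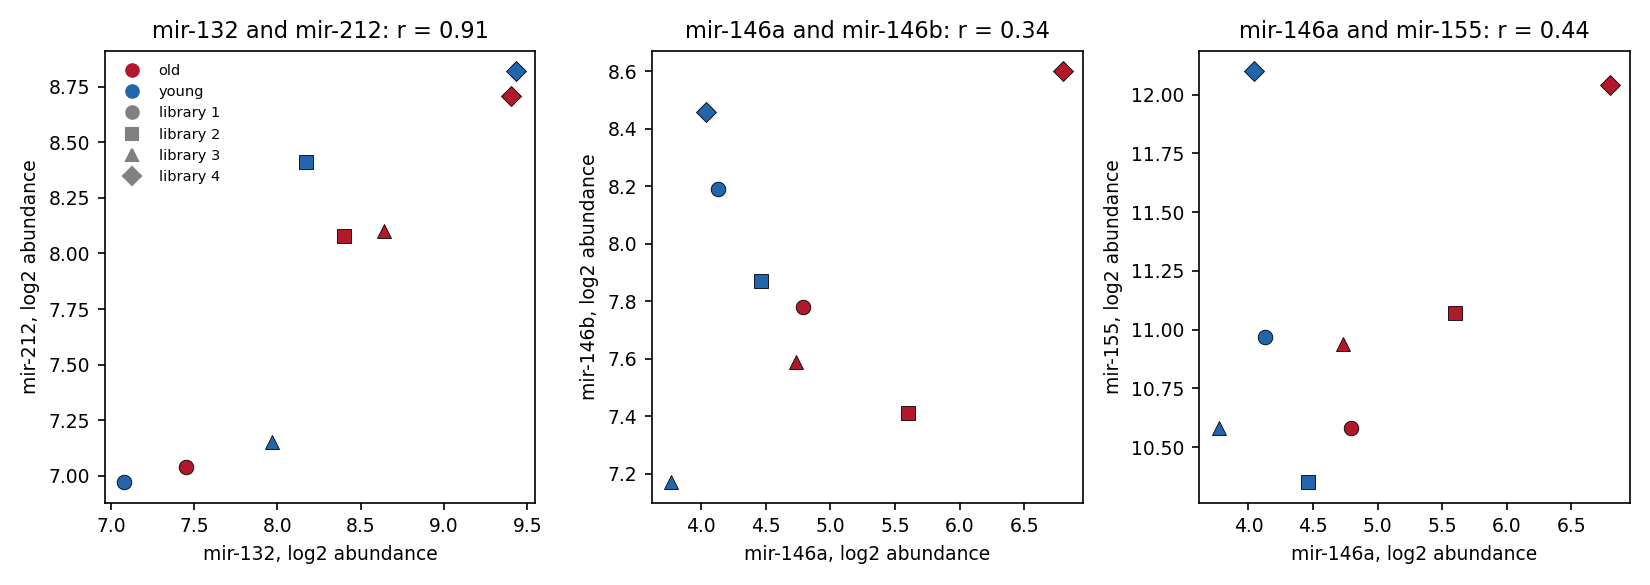
Log2 abundance of 1 precursor against another in the 8 libraries (red old, blue young; the marker shape gives the library number), for mir-132 and mir-212 (r = 0.913), mir-146a and mir-146b (r = 0.337) and mir-146a and mir-155 (r = 0.437). Old 4 and young 4 lie together at the upper right for mir-132 and mir-212, while for mir-146a old 4 is high and young 4 is low.

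Old 4 and young 4 stood apart from the other libraries in most members, whatever the age. Old 4 was the highest old library for 6 of 7 members and for 50.4% of the 359 precursors. Young 4 was the highest young library for 5 of 7 members and for 57.9% of the 359. Both held for 5 members, mir-21a, mir-155, mir-132, mir-212 and mir-146b, where 38.7% of the 359 precursors showed the same. Against the mean of the other 3 libraries of its group, old 4 was higher by 1.07 for mir-21a, 1.18 for mir-155, 1.24 for mir-132, 0.97 for mir-212 and 1.01 for mir-146b on the log2 scale. Young 4 was higher by 1.47, 1.47, 1.69, 1.31 and 0.72 in the same order. The median over the 359 precursors was 0.39 for old 4 and 0.82 for young 4, so part of these gaps was shared by most precursors of these libraries, and for mir-146b in young 4 the gap was under that median.

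mir-146a and mir-147 departed from that pattern. mir-146a was higher in old 4 by 1.76 and stood at -0.08 in young 4 relative to the other young libraries. mir-147 stood at -1.17 in old 4 and at -0.63 in young 4. Between old 4 and young 4 themselves, mir-146a differed by 6.80 against 4.04 and mir-147 by 4.97 against 3.75, while mir-155 was at 12.04 and 12.10.

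The labels call these cells myoblasts, and mir-206, the listed muscle marker of highest level per length, was abundant in every library. Specific to skeletal muscle, it was at 15.67 to 16.52 in 7 libraries and at 14.78 in young 4. mir-499, of slow muscle fibres, was at 3.45 to 5.42 in 6 libraries, at 1.60 in old 4 and at 0.36 in young 4. mir-208b, also of slow fibres, was at 0 in old 4 and young 4, at 0.38 in young 1 and at 3.80 to 4.57 in the other 5. mir-133a-1 was lowest in old 4 of the old libraries (12.94) and in young 4 of the young ones (11.91). Not every muscle marker was low in old 4: mir-133b was higher there than in any other library (13.28), and mir-1a-2 was the highest of the old libraries (2.47). Against the mean of the other libraries of the group, 6 of 8 listed muscle precursors were lower in old 4 and 8 of 8 in young 4. The libraries with the highest mir-21a, mir-155, mir-132 and mir-212 were thus those with the lowest mir-499, and the part of muscle differentiation in these levels was not tested.

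**Figure D5:**
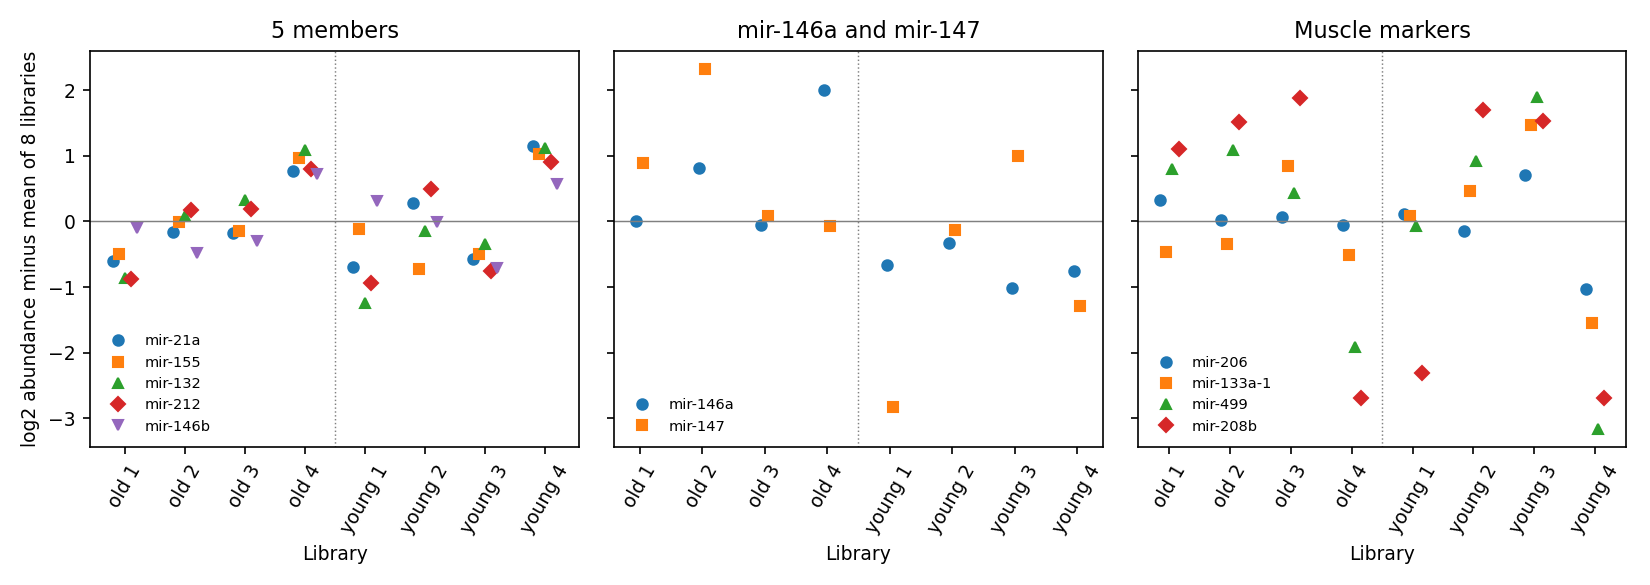
Log2 abundance minus the mean over the 8 libraries (y axis) in each library (x axis). The left panel has the 5 members highest in old 4 and young 4, and the middle panel mir-146a and mir-147. The right panel has the muscle markers mir-206, mir-133a-1, mir-499 and mir-208b only. Old 4 and young 4 are high on the left, and mir-499 and mir-208b are low in both on the right. Of the listed markers not shown, mir-1a-1 and mir-133a-2 were lower in both than the mean of the other libraries of the group. mir-133b (13.28) and mir-1a-2 (2.47) were higher in old 4 and lower in young 4.

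Markers of white blood cells, which also carry mir-146a, mir-155 and mir-147, were nearly all at the floor. Of the 5 leukocyte precursors in the table, mir-142, mir-142b, mir-223 and mir-511 were at 0 in all 8 libraries. mir-150, of lymphocytes, measured 3.05, 3.71, 3.76 and 4.47 in the old group and 1.04, 3.85, 2.91 and 4.32 in the young group, with overlapping groups. The summed linear level of the list was 8.28 to 22.2 in old and 2.06 to 20.0 in young libraries, and it came from mir-150 alone. The erythroid mir-144 was at 0 throughout, and mir-451a and mir-451b were at 0 except for 0.89 in young 1. The endothelial mir-126a was at 3.32 to 4.34 in old and at 2.96 to 5.11 in young libraries. It was highest in old 4 and young 4 within their groups, as were mir-150 and 38.7% of the 359 precursors.

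Fibroblast and smooth muscle markers were present at high levels. mir-143 measured 14.89 to 15.56 in old and 14.06 to 15.35 in young libraries. mir-199a-1 measured 11.32 to 12.42 and 10.90 to 12.12. Against the mean of the other libraries of the group, 4 of the 5 detected precursors of the list were higher in old 4 and 5 of 5 in young 4. The median over all compared precursors was itself higher, by 0.39 in old 4 and 0.82 in young 4. These counts alone therefore do not set the list apart. mir-143, the most abundant of the list, at -0.41 and 0.03, and mir-145a at 0.29 and 0.70 were below that median in both libraries. Above it in both were mir-199a-1 (0.96 and 0.95), mir-199a-2 (0.96 and 0.93) and mir-214 (0.59 and 1.08). The summed linear level was highest in old 1 and young 2 of their groups, not in libraries 4. Of this list 5 precursors were compared, all with a higher mean in old libraries and a median difference of 0.29, and 0 passed. Over the 359 precursors 46.0% had a higher mean in old libraries, with a median difference of -0.05. mir-199a-1 and mir-199a-2 rose and fell together over the libraries, so the 5 are not separate observations. The summed linear level of the list was 41938 to 58764 in old and 24441 to 51299 in young libraries, with mir-145b at 0 in all of them, and its part in the values of mir-146a and mir-147 was not tested. The muscle list had 6 compared members, 3 higher and 3 lower, with a median difference of 0.06.

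By their means 5 of 7 members were higher in old libraries, against 46.0% of the 359 precursors. The median difference of the members was 0.16 and that of the 359 was -0.05, and 0 of 7 members passed. The count turned with the scaling: quantile normalization, which moved the median of the 359 by 0.14, put 6 of 7 members and 59.6% of the precursors higher in old libraries. Scaling to a sum without mir-486 and mir-3107, the most abundant pair, moved that median by 0.20 and put 7 of 7 members and 64.9% of the precursors higher. Single libraries turned it as well, with 7 of 7 members and 61.3% of the precursors higher without young 4, and 3 of 7 members and 32.9% of the precursors higher without old 4. Of the 16 other miRNAs listed as linked to NF-kB or inflammation 11 were compared, 3 with a higher and 8 with a lower mean in old libraries. The median difference was -0.085, and 0 passed. These 11 are not separate observations: mir-181b-1 and mir-181b-2 both differed by -0.33, and mir-125b-1 and mir-125b-2 by -0.025 and 0.0125. Such differences near 0, as for mir-221 (-0.0075), carry little direction. The 4 most abundant were mir-125a at 16.83 ± 0.15 in the old and 17.15 ± 0.58 in the young group, mir-125b-1 at 16.86 ± 0.37 and 16.89 ± 0.72, mir-125b-2 at 16.365 ± 0.38 and 16.35 ± 0.64, and mir-221 at 14.30 ± 0.66 and 14.31 ± 0.81 (SD, n = 4 in each group; limma, adjusted p = 0.995 for each). miR-125b targets the cytokine Tnf, and miR-221 is raised by NF-kB and AP-1 in human tumour cells. The copies mir-9-1, mir-9-2 and mir-9-3, whose mature form is induced by NF-kB in human monocytes, stayed between 0 and 2.21 and were too low to compare.

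The 5 precursors most like mir-146a across the 8 libraries, by Pearson r among the 359, were mir-6899 (r = 0.750), mir-92b (0.700), mir-184 (0.681), mir-140 (0.655) and mir-199a-1 (0.655). These values are a description with no test, and each of the 5 was highest in old 4. mir-184 measured 11.16 in old 4 against 2.48 to 4.87 in the other 7 libraries. mir-92b measured 14.37 in old 4 against 11.97 to 12.92 elsewhere. For mir-6899 the old and young ranges overlapped, at 2.72 to 5.20 and 2.76 to 4.05, as did those of the other 4, so none of them shared the separation by age that mir-146a showed.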

How the data were processed

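The authors deposited log2 abundances with 2 decimals for 1181 miRNA precursors in 8 libraries. Per the labels, RNA came from a mirVana kit and was read on an Illumina GAIIx. The submitters' processing notes name BWA and mm10; counting rule and normalization: not given in the sources used here. What the linear unit is was read from values worth 12 reads or fewer, 111 to 216 per library: multiplied by precursor length, 99.1 to 100% of them were a whole number of steps (within 0.1 of a read).

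limma 3.58.1 (R 4.3.3; eBayes with a trend) was fitted to the deposited log2 values with no rescaling, for the 359 precursors that reached a linear value of 10 in 4 or more libraries. Differences are old minus young, p-values were adjusted by Benjamini-Hochberg over all 359 with a threshold of 0.05, and the fit was tested on simulated data. Exact permutation tests were two-sided. Python 3.11.15, numpy 2.4.6, scipy 1.17.1 and matplotlib 3.10.9 were used.

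The members and lists (other inflammation-linked, leukocyte, erythroid, endothelial, fibroblast and smooth muscle, muscle) were chosen with earlier results of these data known. Named miRNAs are the members, the 5 precursors most correlated with mir-146a, the 4 most abundant of the other inflammation-linked list and the markers. 1176 of 1181 precursors, members included, were matched to RefSeq by name.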

Additional observations from a re-analysis of the deposited data

How the results depend on the processing

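No precursor passed (0) in any limma alternative, over 359 precursors (781 with no filter, 218 with a mean of at least 100 required), except without old 3 and young 4 together. There 33 did and no member was among them. Of all pairs of an old and a young library, this one had the lowest correlation of deviations from the group means (-0.70). The only other pair left out, both libraries 4, gave 0 calls, so the 33 depend on the choice of pair. At an unadjusted p under 0.05 there were 1 to 59 of 359, 19 of 781 and 0 of 218. mir-146a and mir-147 kept a positive difference in 20 of 20 alternatives, from 0.92 to 1.65 and from 0.95 to 2.23. Their smallest adjusted p was 0.202 and 0.459 (limma), and with a mean of at least 100 required neither was tested. For mir-146a the sign could not change where libraries were left out or weighted, since every old value was above every young one. With no filter, without the trend or with the replicate number as a block, the differences equal those of the main fit by construction. The count of alternatives is therefore no measure of robustness. Leaving out each library in turn gave 0.94 to 1.63 for mir-146a and 0.95 to 2.23 for mir-147. For the other members it gave values on both sides of 0: -0.33 to 0.10 for mir-146b, -0.14 to 0.52 for mir-155, -0.35 to 0.28 for mir-21a, -0.051 to 0.73 for mir-132 and -0.14 to 0.47 for mir-212. Further sign changes were seen for mir-146b with quantile normalization (0.18), scaling to a sum that leaves out mir-486 and mir-3107 (0.12), array weights (0.032) and without old 3 and young 4 (0.19), and for mir-21a with that scaling (0.11), array weights (0.037), without both libraries 4 (0.013) and without old 3 and young 4 (0.33); the cause was not tested. The replicate number as a block gave 0 calls, a difference of 1.38 for mir-146a (limma, adjusted p = 0.326) and no call for another member. The labels state no pairing by number. Same-numbered libraries correlated at -0.06 to 0.66 in their deviations from the group means, and 6 of 8 correlated best with their own number. Old 3 and young 1, of unlike number, correlated at 0.45.

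The relation of mir-132 and mir-212 (r = 0.913) did not pass after adjustment over 3 pairs without the libraries farthest from the median (0.845), after median-ratio rescaling (0.791) or without both libraries 4 (0.827), the latter alternatives being chosen after seeing the data. Fewer libraries account for part of that loss where 6 remained. The r of mir-146a with mir-155 was -0.30 without the libraries farthest from the median, 0.453 without both libraries 4 and 0.307 after median-ratio rescaling. That of mir-146a with mir-146b was 0.00207, -0.095 and 0.215 in the same order. For mir-146a, depth is a limit, with 29 to 182 reads per library.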
